A study of Mus musculus with 6 samples.

Results

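The ephrin, semaphorin, netrin and Slit guidance genes were described in sorted glomerular endothelial cells, which line the capillaries where the kidney filters blood. Members were the genes named in a list of 38 ligands and receptors, with the neuropilins left out, and 34 of them had a row among the 12911 genes of the deposited tables. Of these 34, 18 were ligands and 16 were receptors. No row carried the symbols Ephb3, Sema3c, Sema4d or Ntn1, and these 4 members were not analysed here. The study compared 3 libraries from eNOS-null mice given streptozotocin (STZ), which destroys insulin-producing cells and is used to induce diabetes, with 3 libraries from eNOS-null mice without treatment (control). All 6 libraries therefore share the loss of endothelial nitric oxide synthase, and no library of another genotype was used here. Each library held the pooled RNA of 4 mice, so the errors and p-values given here measure the spread between pools. Cells were sorted by EYFP fluorescence after glomeruli had been collected with magnetic beads. The sources used here do not give the promoter that drives EYFP, the dose of STZ, the time after it, or the age of the mice.

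Ephrins are membrane-bound ligands of the Eph receptor tyrosine kinases, and a contact between a cell with ephrin and a cell with Eph receptor can signal into both cells. Semaphorins are secreted or membrane-bound ligands whose main receptors are the plexins, with neuropilins as partners for most secreted class members. Netrins act through DCC, neogenin and the UNC5 receptors, and Slits act through Robo receptors. These families were first known from growing axons, and in blood vessels they take part in sprouting, in the boundary between arteries and veins, and in the control of leakage.

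Total deposited counts were 10734376 to 12662371.5 in the STZ libraries and 4387339 to 8751732.5 in the control libraries, so each STZ library was deeper than each control library. Nos3, which encodes the enzyme named in the genotype, had 613, 749 and 667 CPM in STZ pools 1 to 3 and 847, 757 and 917 CPM in control pools 1 to 3, where CPM scales counts to a common library size. Its STZ values were lower than its control values, but the log2 fold change of -0.31 ± 0.11 (SE) did not pass (adjusted p = 0.0910, edgeR). Gene totals do not show whether these reads fall in the part of Nos3 that the null allele lacks, so they do not check the genotype. All 10 endothelial markers were present and 6 were called higher. They summed to 24337 to 26413 CPM in STZ libraries and to 13796 to 15936 CPM in control libraries. Most of this difference lay in Plat (mean 8303 CPM in STZ, 2630 in control) and Ehd3 (5230 and 3001). Tie1 (1419 and 1426) and Tek (727 and 718) overlapped between the groups. Of the 10 genes 9 had a positive fold change, with a median log2 fold change of 0.45 over the 10. Xist, the RNA of the inactive X chromosome, had 0.39 to 0.86 CPM in STZ libraries and 690 to 746 CPM in control libraries, while all 4 Y-linked genes looked at were higher in STZ. The labels give no sex, and STZ treatment and this split between the pools cannot be told apart in any value that follows. Efnb1 is the only one of the 34 members on the X chromosome. Mesangial and mural markers also differed by group. The 10 marker genes, led by Itga8 and Pdgfrb, summed to 414 to 783 CPM in STZ libraries and to 1083 to 1177 CPM in control libraries, all 10 had a negative fold change, 2 were called lower, and none was at 0 in any library. STZ pool 2 had the lowest value of all 6 libraries for 9 of these 10 genes. The 10 podocyte markers summed to 5603 to 6831 CPM in STZ libraries and 5027 to 7888 CPM in control libraries, with STZ pool 2 and control pool 3 lowest, and edgeR called 0 of 10 (3 had an unadjusted p under 0.05). Podxl, at a mean of 3708 CPM in STZ and 3581 CPM in control, was the largest part of these sums. Of the 10 podocyte markers 8 had a negative fold change and 2, Podxl and Clic5, a positive one. The median log2 fold change over the 10 was -0.52.

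STZ libraries had higher expression of 5 of the 34 members and lower expression of 3, at an adjusted p under 0.05 by edgeR's quasi-likelihood method. The higher genes were Sema7a, Plxna2, Efna1, Ephb4 and Plxna4, and the lower genes were Slit3, Epha4 and Sema3b. Among all 12786 tested genes 9.78% were called, 5.47% higher and 4.32% lower, whereas 23.5% of the members were called. The median absolute log2 fold change was 0.32 over the members and 0.17 over all tested genes, and the signed medians were -0.07 and -0.01. STZ libraries lay wholly above the control libraries in 7 members and wholly below them in 7, against 15.4% and 13.7% of all tested genes. The other 26 members did not pass the test, and their log2 fold changes ran from -1.13 for Ephb1 to 0.31 for Sema3f. With DESeq2 13 members were called, 5 higher and 8 lower, against 10.1% of all genes, and with limma-voom 8 were called, against 9.25%. An unadjusted p under 0.05 was reached by 16 of the 34 members and by 24.2% of all tested genes. Members are single genes of related families and were chosen with results of these data known, so these shares describe the list and carry no test.

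**Figure D1:**
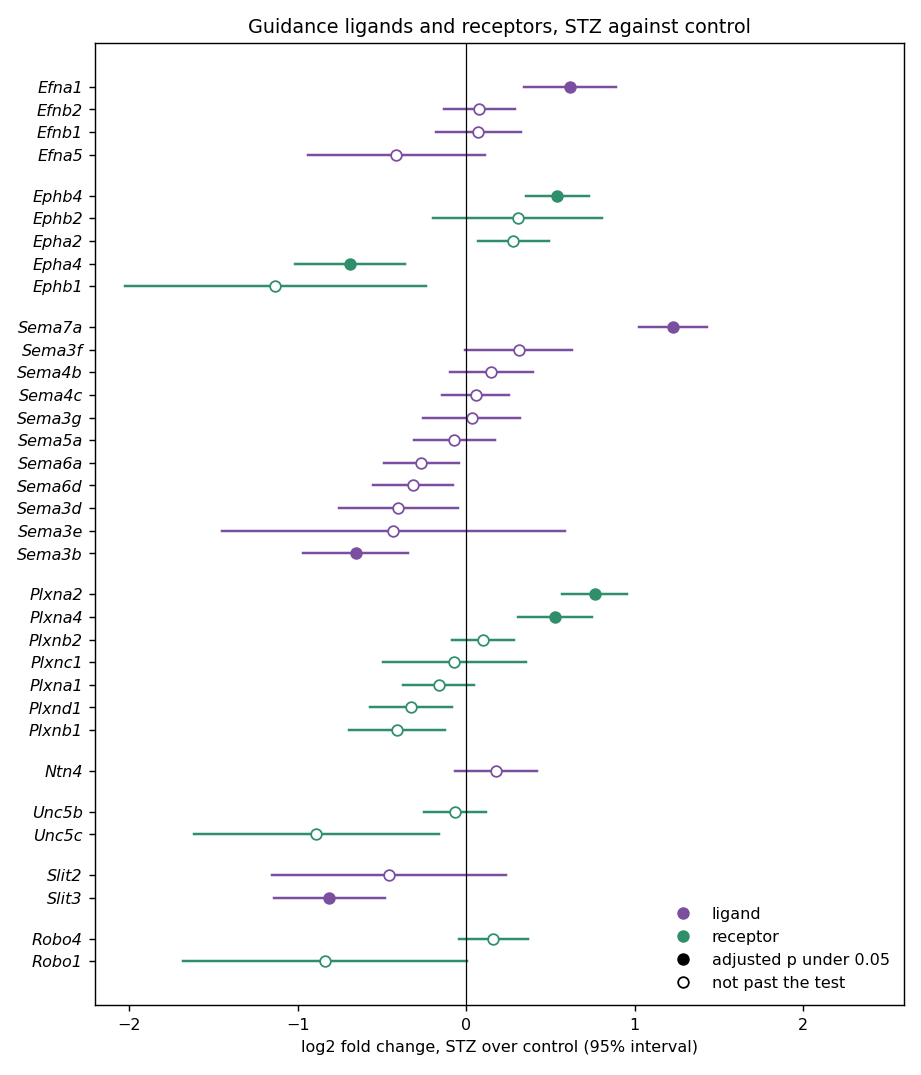
Each point is the log2 fold change (STZ divided by control) of 1 member, with its 95% interval as a line, grouped by family (ephrins, Eph receptors, semaphorins, plexins, netrin, UNC5 receptors, Slits, Robo receptors) with ligands in purple and receptors in green. Filled points passed an adjusted p of 0.05, and these are 5 genes right of 0 and 3 genes left of it.

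The largest change of a member was in Sema7a, a semaphorin held in the membrane by a lipid anchor that binds plexin C1 and beta-1 integrins. Sema7a (NM_011352, mm10 chromosome 9, 57940135 to 57962865, plus strand) had 716, 796 and 712 CPM in STZ pools 1 to 3, against 309, 313 and 329 CPM in control pools 1 to 3. All STZ values lay far above all control values, and within each group the 3 values were close. The mean was 741 ± 47.6 CPM in STZ and 317 ± 10.4 CPM in control (SD, n = 3 each), a log2 fold change of 1.23 ± 0.09 (SE) or 2.34-fold, with an adjusted p of 4.61e-06 by edgeR.

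Plxna2, a plexin that receives class 6 and class 3 semaphorins, had the next smallest p. Plxna2 (NM_008882, chromosome 1, 194619829 to 194816868, plus strand) had 351, 351 and 350.1 CPM in STZ pools and 213, 189.8 and 218 CPM in control pools. The STZ values were nearly identical and all lay above the control values. On the log2 scale the fold change was 0.76 ± 0.09 (SE; adjusted p = 0.000155, edgeR).

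Promoter sequences are shown for the 3 higher members with the smallest p and for the lower member with the smallest p, so that genes which moved in opposite directions can be set side by side. They run from 250 bases before to 50 bases after the start in the RefSeq table (RefSeq, GRCm38.p6, the assembly called mm10), 5′ to 3′ on the gene's own strand. Capitals mark the GC box, the hexamer GGGCGG on either strand (GGGCGG or its reverse complement CCGCCC), which binds Sp family factors. The regions are chr9:57939862-57940161 for Sema7a, chr1:194619579-194619878 for Plxna2, chr5:137349859-137350158 for Ephb4 and chr11:35121206-35121505 for Slit3, all on the plus strand.
Sema7a: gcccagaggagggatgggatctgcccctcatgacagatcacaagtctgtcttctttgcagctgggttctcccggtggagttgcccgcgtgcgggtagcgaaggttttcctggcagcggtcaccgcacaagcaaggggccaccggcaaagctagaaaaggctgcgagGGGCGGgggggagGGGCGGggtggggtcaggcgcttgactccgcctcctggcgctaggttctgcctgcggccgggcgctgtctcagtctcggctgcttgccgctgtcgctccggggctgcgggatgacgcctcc
Plxna2: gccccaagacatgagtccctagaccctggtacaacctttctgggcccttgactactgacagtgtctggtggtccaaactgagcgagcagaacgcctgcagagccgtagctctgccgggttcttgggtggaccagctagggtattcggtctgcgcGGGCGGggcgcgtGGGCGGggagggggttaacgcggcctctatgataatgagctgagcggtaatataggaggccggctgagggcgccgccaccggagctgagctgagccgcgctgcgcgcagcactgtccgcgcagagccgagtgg
Ephb4: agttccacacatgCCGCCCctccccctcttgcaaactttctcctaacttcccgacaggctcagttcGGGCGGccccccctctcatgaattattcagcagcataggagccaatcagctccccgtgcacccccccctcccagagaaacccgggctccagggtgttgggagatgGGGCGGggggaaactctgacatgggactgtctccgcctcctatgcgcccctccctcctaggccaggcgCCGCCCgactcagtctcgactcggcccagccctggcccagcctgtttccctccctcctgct
Slit3: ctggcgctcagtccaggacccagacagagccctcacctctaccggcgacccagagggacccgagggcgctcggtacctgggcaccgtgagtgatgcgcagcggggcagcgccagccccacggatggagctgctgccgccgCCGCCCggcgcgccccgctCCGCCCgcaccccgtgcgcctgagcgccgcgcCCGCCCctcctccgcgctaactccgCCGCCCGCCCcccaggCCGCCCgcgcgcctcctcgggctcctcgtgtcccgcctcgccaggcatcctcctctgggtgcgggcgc
The Sema7a window holds 2 GC boxes, the Plxna2 window 2, the Ephb4 window 4 and the Slit3 window 6, 2 of which overlap. Positions are counted from the RefSeq start, which for Sema7a lies 23 bases before the start listed in the deposited files. In the Sema7a window the boxes begin 84 and 71 bases before it, and in the Plxna2 window 96 and 83 bases before it. At least 1 GC box was found in 22 of the 29 members with a RefSeq promoter entry, counted by gene over all its entries. Counted by entry, it was found in 35.7% of all 32851 promoters, so these figures differ in unit. The median G and C content was 65.0% over the 34 member entries and 52.7% over all promoters. Called members with a GC box include higher genes (Efna1, for example) and lower genes (Epha4). These matches describe letters in a window of 300 bases and do not show binding. Sema3b, Sema3f, Sema6a, Plxna1 and Plxna4 had no entry.

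Among the ephrin ligands, Efna1 was the 1 of 4 that passed the test. Efna1, an ephrin anchored to the outer membrane by lipid (NM_010107, chromosome 3, 89271730 to 89279645, minus strand), had 264, 266 and 238 CPM in STZ pools and 194, 174 and 132 CPM in control pools. All STZ values lay above all control values, and control pool 3 was the lowest. Its log2 fold change was 0.62 ± 0.12 (SE; adjusted p = 0.00799, edgeR). Efnb2, the transmembrane ephrin that marks arterial endothelium, had 830.3, 918 and 772 CPM in STZ pools and 759, 813 and 817 CPM in control pools. The groups overlapped, and the log2 fold change was 0.08 with a 95% interval of -0.13 to 0.29. The X-linked Efnb1 had 0.07 (95% interval -0.18 to 0.33). Efna5 was scarce, with 3.40 to 3.98 CPM in STZ and 4.07 to 5.74 CPM in control. These ranges did not overlap, and the difference did not pass (adjusted p = 0.326, edgeR).

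The Eph receptors moved in both directions. Ephb4, the receptor of ephrin-B2 that marks venous endothelium (NM_010144, chromosome 5, 137350109 to 137374522, plus strand), had 298, 315 and 289 CPM in STZ pools, against 208, 199 and 214 CPM in control pools. The groups were well apart, with a log2 fold change of 0.54 ± 0.09 (SE; adjusted p = 0.00156, edgeR). Of the 8 arterial markers 2 were higher (Gja4 and Hey1) and 1 lower (Bmx), and of the 4 tested venous and peritubular markers 1 was lower (Plvap). Nr2f2 (log2 fold change -0.02), Vwf (0.04) and Selp (0.36) did not pass. Epha4, a receptor that binds both ephrin classes (NM_007936, chromosome 1, 77367185 to 77515088, minus strand), had 19.9, 20.7 and 17.7 CPM in STZ pools and 30.6, 25.7 and 38.4 CPM in control pools. All STZ values lay below the control values, which spread widely. Its log2 fold change was -0.69 ± 0.15 (SE; adjusted p = 0.0114, edgeR), and it did not pass when control pool 1 (adjusted p = 0.0507) or STZ pool 3 (0.0510) was left out. Epha2, a receptor of ephrin-A1 in endothelium, had 140.2, 154 and 123 CPM in STZ pools and 119.7, 113 and 111 CPM in control pools. The groups did not overlap, but at 0.28 ± 0.10 (SE) on the log2 scale the difference did not pass (adjusted p = 0.0941, edgeR).

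Ephb1, named after its values were seen, had the most negative fitted fold change of the members and the largest SE of it among the Eph receptors. It had 12.8, 7.44 and 11.7 CPM in STZ pools and 24.0, 32.8 and 11.9 CPM in control pools, so control pool 3 sat among the STZ values. The log2 fold change of -1.13 ± 0.37 (SE) had an adjusted p of 0.124 by edgeR, whereas without control pool 3 it was -1.41 (adjusted p = 0.00183), without any other library it did not pass (0.184 to 0.249), and DESeq2 called it with all libraries (adjusted p = 0.00158). Ephb2 had 5.02 to 6.48 CPM in STZ and 3.98 to 5.62 CPM in control and did not pass.

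**Figure D2:**
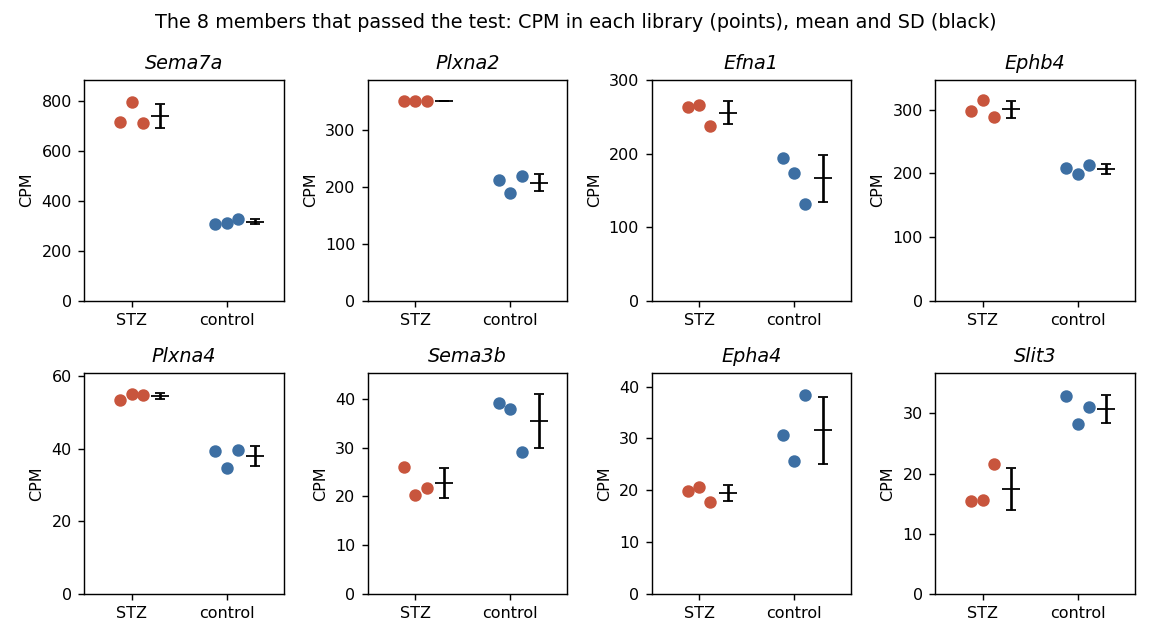
CPM of the 8 members that passed the test, with 1 point per library, STZ left of control, and the mean with SD in black. In each panel the 3 STZ points lie wholly on one side of the 3 control points, and Sema7a reaches 712 to 796 CPM in STZ against 309 to 329 CPM in control.

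Of the 11 listed semaphorins, Sema7a was called higher, Sema3b was called lower and 9 did not pass. Sema3b, a secreted semaphorin (NM_001291539, chromosome 9, 107597674 to 107609241, minus strand), had 26.1, 20.2 and 21.7 CPM in STZ pools and 39.2, 37.9 and 29.2 CPM in control pools. All STZ values were below all control values. Its log2 fold change of -0.66 (adjusted p = 0.0115, edgeR) did not pass when control pool 1 was left out (adjusted p = 0.0771). The files list 6 transcripts of Sema3b and do not say how their counts were combined. Sema3f, on the same strand and 72260 bases from Sema3b, had 451, 669 and 461 CPM in STZ pools and 399.7, 418 and 456 CPM in control pools. STZ pool 2 stood above the other libraries, and the fold change of 0.31 ± 0.14 (log2, SE) did not pass (adjusted p = 0.214, edgeR). Without that pool it was 0.10 (adjusted p = 0.607).

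Sema3g, a secreted semaphorin of endothelium that acts through neuropilin-2, had the highest level per length as a mean over all 6 libraries, though its range overlapped that of Efnb2 and in STZ the mean of Sema7a was higher. It had 845, 692 and 865 CPM in STZ pools and 804, 904 and 639.6 CPM in control pools, and the groups overlapped fully. Its log2 fold change was 0.03, with a 95% interval of -0.25 to 0.32. The membrane-bound Sema6a and Sema6d, ligands of class A plexins, had log2 fold changes of -0.27 (95% interval -0.49 to -0.04) and -0.32 (-0.55 to -0.08) and adjusted p of 0.132 and 0.0941 by edgeR. Both passed without STZ pool 2 (adjusted p = 0.0424 and 0.0405) but not without any other library, with -0.22 and -0.24 when STZ pool 1 was left out (adjusted p = 0.396 and 0.352). The other 5 semaphorins, Sema3d, Sema3e, Sema4b, Sema4c and Sema5a, had log2 fold changes of -0.43 to 0.15 and did not pass.

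Of the 7 plexins, 2 were higher in STZ and the other 5 were not past the test. Besides Plxna2, the related Plxna4 (NM_175750, chromosome 6, 32144557 to 32588192, minus strand) had 53.6, 55.2 and 54.8 CPM in STZ pools, against 39.3, 34.7 and 39.5 CPM in control pools. The groups did not overlap, and the log2 fold change was 0.53 ± 0.10 (SE; adjusted p = 0.00481, edgeR). The third class A member listed, Plxna1, had -0.16 with a 95% interval of -0.37 to 0.05. Plxnd1, the receptor of Sema3e and the most abundant plexin here, had 574, 706 and 617 CPM in STZ pools and 748, 734 and 900.0 CPM in control pools. Every STZ value was below every control value, yet the log2 fold change of -0.33 ± 0.11 (SE) did not pass (adjusted p = 0.0885, edgeR). It passed without STZ pool 2 (-0.41, adjusted p = 0.0479) but not without any other library, with -0.26 (adjusted p = 0.334) when STZ pool 1 was left out.

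Plxnb2, a receptor of class 4 semaphorins, had 177, 166 and 182 CPM in STZ pools and 167, 165 and 157 CPM in control pools, a log2 fold change of 0.10 (95% interval -0.08 to 0.28). Plxnc1, the plexin that binds Sema7a, was scarce. It had 7.54, 8.22 and 8.26 CPM in STZ pools and 8.68, 9.64 and 6.63 CPM in control pools, and the groups overlapped (log2 fold change -0.07, 95% interval -0.50 to 0.36). Plxnb1 was at -0.41 and did not pass (adjusted p = 0.0747, edgeR), but passed without control pool 3 (adjusted p = 0.0133), and with any other library left out the adjusted p was 0.0629 to 0.239.

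Among the netrin and Slit systems 1 of 7 listed members was called. Slit3, a secreted ligand of Robo receptors (NM_011412, chromosome 11, 35121456 to 35708507, plus strand), had 15.4, 15.6 and 21.5 CPM in STZ pools and 32.9, 28.3 and 31.2 CPM in control pools. Every STZ value was below every control value, with a log2 fold change of -0.81 ± 0.15 (SE; adjusted p = 0.00408, edgeR). Slit2 had 3.87, 1.73 and 4.29 CPM in STZ pools and 4.18, 4.50 and 5.08 CPM in control pools and did not pass. Robo1, a receptor of both Slits, had 18.8, 7.0 and 17.5 CPM in STZ pools and 23.3, 26.2 and 28.1 CPM in control pools. STZ pool 2 was far below all other libraries, and the log2 fold change of -0.84 ± 0.35 (SE) did not pass (adjusted p = 0.210, edgeR). Without that pool it was -0.50 (adjusted p = 0.0581).

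Robo4, the Robo receptor found mainly in endothelium, had 623, 687 and 652 CPM in STZ pools and 612, 541 and 601 CPM in control pools. The STZ values were all higher, but the log2 fold change of 0.16 ± 0.09 (SE) did not pass (adjusted p = 0.323, edgeR). Ntn4, a laminin-like netrin of basement membranes, had 147, 181 and 134 CPM in STZ pools and 127, 145 and 137 CPM in control pools (log2 fold change 0.18, 95% interval -0.07 to 0.42). Unc5b, the UNC5 receptor of endothelium, had 136, 125 and 139.8 CPM in STZ pools and 144, 141 and 135 CPM in control pools (-0.07, 95% interval -0.25 to 0.12). For both genes the groups overlapped. Unc5c had 9.09, 5.19 and 12.1 CPM in STZ pools and 14.9, 21.8 and 11.9 CPM in control pools. It did not pass (log2 fold change -0.89 ± 0.32, SE; adjusted p = 0.132, edgeR), and it passed without STZ pool 3 (-1.20, adjusted p = 0.0395) but not without any other library (adjusted p 0.0962 to 0.325).

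**Figure D3:**
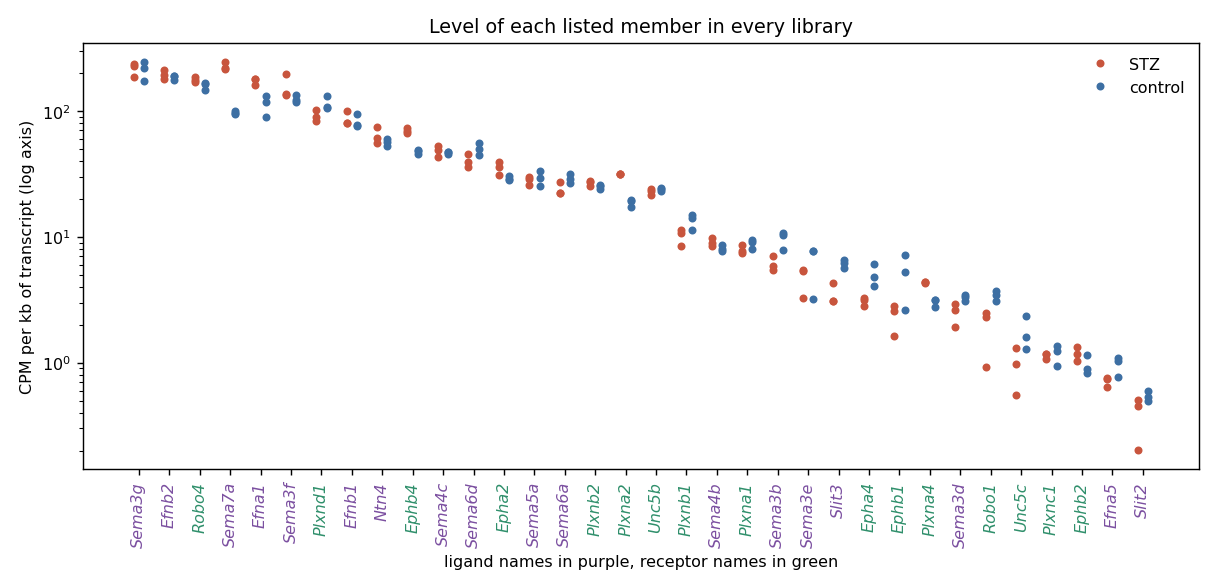
CPM per kb of the listed transcript for each of the 34 members in every library, on a log axis, with STZ left of control and members ordered by their mean over all libraries. Levels run from 215 for Sema3g to 0.464 for Slit2, as means over all libraries, and the Sema7a points of STZ stand well above those of control.

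Levels of different genes were compared as CPM per kb of the listed RefSeq transcript. Sema3g (mean over all libraries 215), Efnb2 (189), Robo4 (168), Sema7a (162), Efna1 (142) and Sema3f (140.2) led the 34 members, and the ranges of neighbours in this order overlapped. Slit2 (0.464), Efna5 (0.840) and Ephb2 (1.07) were lowest. In STZ the mean of Sema7a, 226 CPM per kb, was above that of Sema3g, 217, whereas in control it was 96.8 against 212. Sema7a thus held 17.6% of the summed ligand level in STZ and 9.15% in control.

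The share of genes called was 22.2% for ligands and 25.0% for receptors. Of 18 ligands 2 were higher and 2 lower, with a median log2 fold change of -0.02, and of 16 receptors 3 were higher and 1 lower, with a median of -0.07. The summed level of the 18 ligands was 1252, 1368 and 1233 CPM per kb in STZ pools and 1058, 1111 and 1010 CPM per kb in control pools. All STZ sums lay above all control sums, by 225 CPM per kb on average, of which Sema7a made up 130 and Efna1 60.5. The summed level of the 16 receptors was 473, 508 and 483 CPM per kb in STZ pools and 466, 438 and 477 CPM per kb in control pools, and these groups overlapped. Robo4 held 36.3% of the receptor sum in STZ and 34.4% in control. No test is given for these sums, since the members were chosen with results known.

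Ratios of a ligand to a receptor of its family were computed for 13 pairs and are given as descriptions. In 8 pairs the STZ and control libraries did not overlap, and each of these pairs holds at least 1 member called as a single gene. Taken singly, 29.1% of all tested genes did not overlap between the groups, and no such share was computed for ratios. In the other 5 pairs the libraries overlapped (Sema3e over Plxnd1, Sema6d over Plxna1, Sema4c over Plxnb2, Ntn4 over Unc5b and Slit3 over Robo1). Among these only Slit3 over Robo1 holds a called member. Sema4c over Plxnb2, which holds none, averaged 1.81 ± 0.24 in STZ and 1.87 ± 0.09 in control (SD, n = 3 each). The 4 pairs that follow were chosen after their values were seen, from the 8 without overlap. Efnb2 over Ephb4, in CPM per kb, was 2.80, 2.92 and 2.68 in STZ pools and 3.66, 4.10 and 3.84 in control pools, so it was lower in every STZ library. Sema7a over Plxnc1 was 204, 209 and 185 in STZ pools and 76.6, 69.8 and 107 in control pools. Its divisor Plxnc1 had only 78, 95 and 102 counts in STZ pools and 79, 60 and 30 in control pools. These low counts limit the ratio. Efna1 over Epha4 was 56.6, 54.9 and 57.4 in STZ pools and 27.0, 28.9 and 14.6 in control pools, in which pool 3 was lowest. Sema6a over Plxna2 was 0.705, 0.860 and 0.708 in STZ pools and 1.49, 1.56 and 1.59 in control pools.

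**Figure D4:**
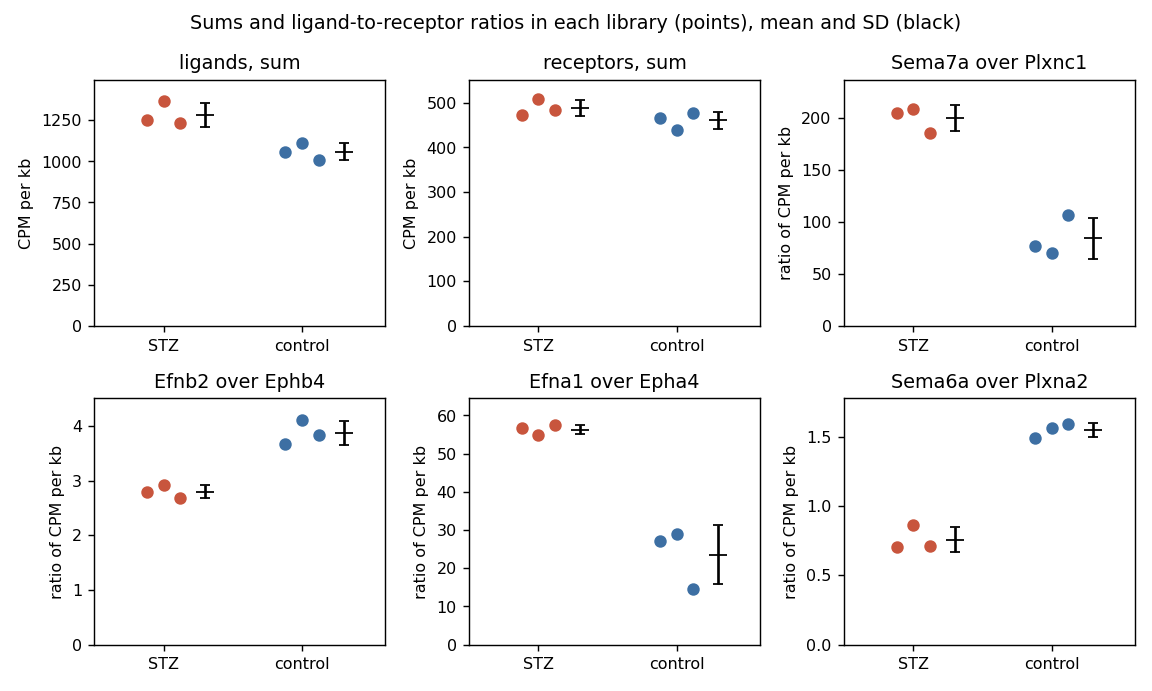
Summed CPM per kb of the 18 ligands and of the 16 receptors, and 4 of the 13 ligand-to-receptor ratios of CPM per kb, chosen from the 8 whose groups do not overlap, with 1 point per library, STZ left of control, and the mean with SD in black. The receptor sums overlap between the groups, whereas the ligand sums do not, and Efnb2 over Ephb4 is 2.68 to 2.92 in STZ against 3.66 to 4.10 in control.

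Members that were low in STZ pool 2 were set beside the marker lists. STZ pool 2 was the lowest of all 6 libraries for 8 of the 34 members, namely Ephb1, Sema3b, Sema3d, Plxnb1, Unc5b, Unc5c, Slit2 and Robo1. Control pool 3 was lowest for as many members, 8, and STZ pool 1 for 6, so this count does not single out STZ pool 2. STZ pool 2 was also lowest for 9 of 10 mesangial and mural, 5 of 10 podocyte, 4 of 6 tubular and 2 of 4 venous and peritubular markers. For arterial, leukocyte and endothelial markers it was lowest in 3 of 8, 1 of 5 and 0 of 10. Control pool 3 was lowest for 4 of 10 podocyte, 2 of 4 venous and peritubular, 6 of 10 endothelial and 0 of 10 mesangial and mural markers. The 6 tested tubular markers summed to 39.7 to 227 CPM in STZ libraries and 144 to 464 CPM in control libraries, and 1 of them was called lower, Slc12a1 (adjusted p = 0.0497, edgeR). Of the 5 tested leukocyte markers, which summed to 65.9 to 73.4 CPM in STZ and 73.4 to 90.9 CPM in control, 1 was called lower, Cd79a (adjusted p = 0.00565, edgeR). None of these tested markers was at 0 in any library. The part of these cells in the members' differences was not tested. In bulk RNA, fewer cells of a type and less RNA per cell cannot be told apart. With the mean level of the mesangial and mural markers as a covariate, 1 of the 34 members was called, Sema7a (log2 fold change 1.03, adjusted p = 0.00762, edgeR), against 205 or 1.6% of all tested genes. The other 7 members called without the covariate kept their sign. In this fit the log2 fold change was 0.74 for Plxna2, 0.59 for Efna1, 0.49 for Plxna4, 0.40 for Ephb4 and -0.97 for Epha4, while Slit3 at -0.46 and Sema3b at -0.36 were more than 1.5 times smaller than without it. That marker level did not overlap between the groups, so that it and STZ treatment cannot be told apart in this fit. With the podocyte markers as a covariate 11 members were called, 5 higher and 6 lower, the added ones being Sema6a, Sema6d and Plxnd1, and the share over all tested genes was also larger, at 15.4%.

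**Figure D5:**
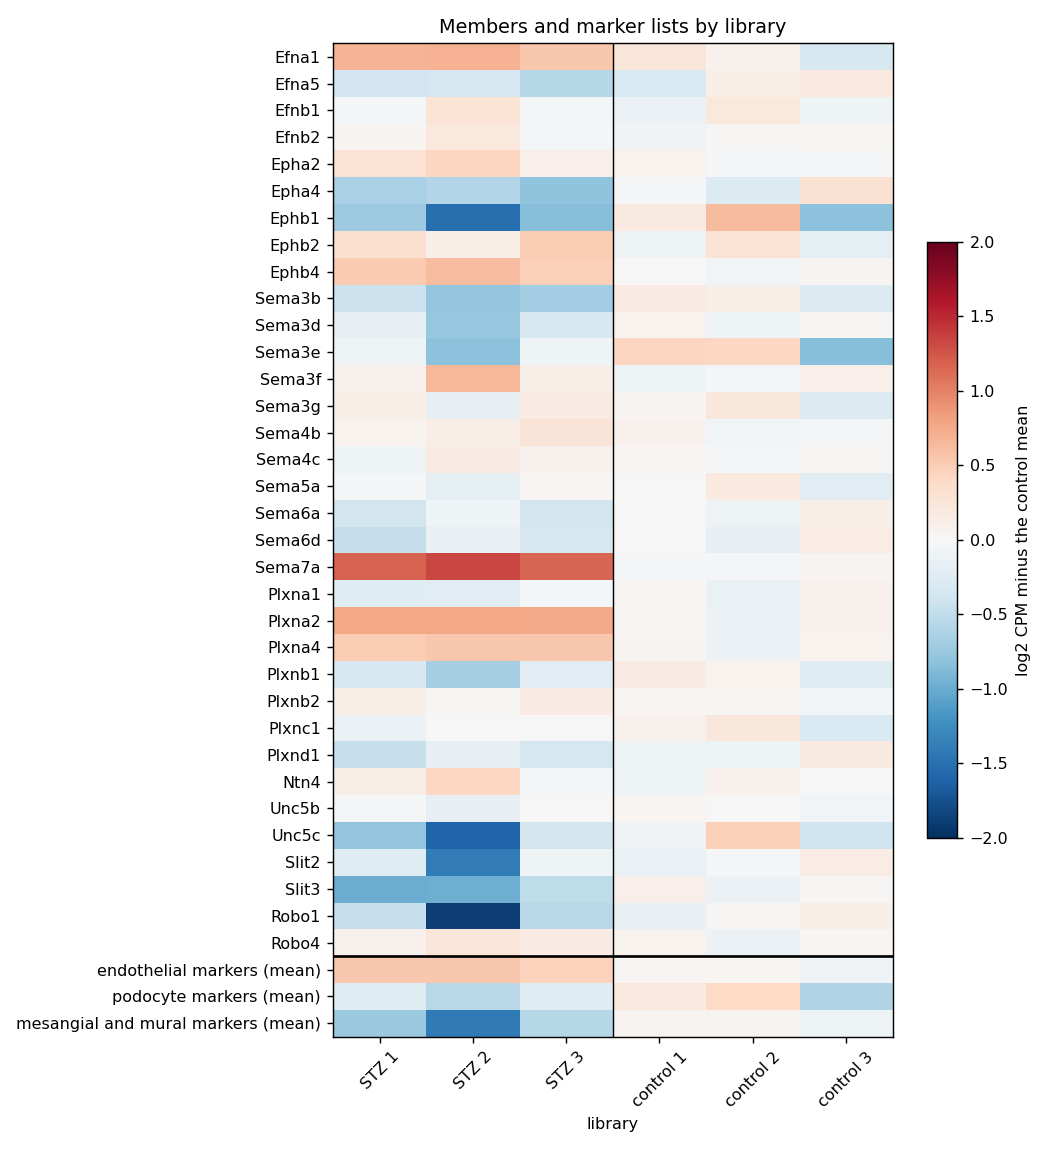
Log2 CPM of each member minus its control mean, in the 3 STZ libraries (left) and the 3 control libraries (right), with the mean of 3 marker lists under the black line. Sema7a, Plxna2, Plxna4 and Ephb4 are evenly high in the 3 STZ libraries, while Robo1, Unc5c, Slit2 and Ephb1 are lowest in STZ 2, as are the mesangial and mural markers.

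Family genes outside the 38 members were listed for 19 of 36 symbols. Their median absolute log2 fold change was 0.21, against 0.17 over all tested genes. Of these 19 genes 1 was called, or 5.26%, against 9.78% of all tested genes. It was Plxna3, an X-linked class A plexin, with 18.1, 16.7 and 18.1 CPM in STZ pools and 30.9, 23.5 and 26.5 CPM in control pools (log2 fold change -0.62 ± 0.14, SE; adjusted p = 0.0124, edgeR). The neuropilin Nrp1, the shared partner receptor of secreted semaphorins and VEGF, had 3170.3, 3042 and 2910 CPM in STZ pools and 2681, 2812 and 2393 CPM in control pools. Its STZ values were all higher, and its log2 fold change of 0.21 ± 0.10 (SE) did not pass (adjusted p = 0.226, edgeR). Nrp2 was at -0.06 (adjusted p = 0.768). The largest fold change of the 19 genes, in either direction, was that of the class 6 semaphorin Sema6b, named after its values were seen. Sema6b had 77.4, 115 and 66.6 CPM in STZ pools and 40.2, 51.7 and 56.8 CPM in control pools. All its STZ values were higher, but the log2 fold change of 0.815 ± 0.238 (SE) did not pass (adjusted p = 0.0918, edgeR).

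Of 39 genes that carry the signal inside the cell or bind the receptors, 35 were tested. The test called 2 of them higher and 4 lower, and the other 29 were not past it. Sh2d3c, an adaptor that binds Eph receptors, had 413, 507 and 419 CPM in STZ pools and 334, 318 and 309.5 CPM in control pools (0.48 ± 0.10, log2 and SE; adjusted p = 0.00947, edgeR). Vav3, an exchange factor that Eph receptors recruit, also rose (0.67 ± 0.14). The 4 lower genes were Ablim1, an actin-binding protein (-0.54 ± 0.10), Rnd3 (-0.52 ± 0.10), Farp1, an exchange factor that acts with class A plexins in neurons (-0.49 ± 0.10), and Flrt3, a membrane protein that binds UNC5 receptors (-1.23 ± 0.26). The adjusted p of these 6 genes ran from 0.00485 to 0.00983. The median log2 fold change of the 35 genes was -0.05, and 17.1% of them were called, against 9.78% of all tested genes.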

How the data were processed

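RNA was measured by sequencing in 6 libraries of sorted glomerular endothelial cells, 3 STZ and 3 control, grouped by their titles. The deposited files hold 1 value per gene, a multiple of 0.5 that was taken as an expected count that the authors had not scaled. Per the submitters' processing notes the build was mm10 and limma was used. The sources used here give no aligner, counter or strand setting, so reads of overlapping genes may be mixed. The 34 blank cells were read as 0, values were rounded, and 1 was added to listed starts. The comparison used edgeR 4.0.16 under R 4.3.3, with filterByExpr, TMM and a robust two-sided quasi-likelihood fit. P-values were adjusted by Benjamini-Hochberg over 12786 genes, and the threshold was 0.05. The design had foreseen raw counts. Biological coefficient of variation was 0.117. CPM were scaled to TMM library sizes, and CPM per kb were divided by the listed transcript length. Markers were matched by symbol and pathway genes also by a listed synonym. Errors are SD over 3 libraries or SE of the fit. The edgeR fit was tested on simulated counts with the same dispersion for every gene. DESeq2 and limma-voom were compared with it there only by the correlation of fold changes. The block and covariate fits were not simulated.

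The alternatives used other normalizations and filters, DESeq2 1.42.0, limma-voom (limma 3.58.1), a replicate block, thinned counts, marker covariates and each library left out. Named members are those called and the 2 of highest CPM per kb in each of 8 role lists, and others were named after their values were seen. The members and lists were chosen with earlier results of these data known. Libraries of a group differed by more than counting noise (chi-square per degree of freedom 3.96 to 11.8), and precision follows the total counts of 4387339 to 12662371.5.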

Additional observations from a re-analysis of the deposited data

How the results depend on the processing

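No member changed direction with DESeq2 size factors, upper-quartile scaling, another filter, DESeq2, limma-voom, a fit that was not robust or a replicate block. The number of members called was 8 in the edgeR test, 13 with DESeq2 and 1 with the mesangial and mural covariate, and it ran from 6 to 11 without 1 library. The genes called numbered 1251, against 1966 with the podocyte covariate and 205 with the mesangial and mural covariate. They ran from 662 (without STZ pool 1) to 1291, and were 720 without control pool 1. DESeq2 added Ephb1, Plxnb1, Plxnd1, Unc5c and Robo1. Sema7a was called under all 17 other settings of fit or libraries. Efna1, Ephb4, Plxna2, Plxna4 and Slit3 lost their call in 1 of these (the mesangial and mural covariate), Sema3b in 2 and Epha4 in 3. With that covariate their log2 fold changes were 0.59, 0.40, 0.74, 0.49 and -0.46, and those of Sema3b and Epha4 were -0.36 and -0.97. The summed level per kb in STZ minus control ran from 184 to 251 for ligands and from 16.9 (without control pool 2; 17.7 without STZ pool 2) to 37.0 for receptors without 1 library.

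Replicate numbers did not pair the libraries (correlations of deviations 0.119, -0.128 and -0.163 for the 3 same-numbered pairs). With the replicate block 1001 genes and the same number of members, 8, were called.

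Some log2 fold changes that did not pass the test changed sign. With the mesangial and mural covariate these were Efnb1 -0.25, Efnb2 -0.18, Epha2 -0.008, Sema3d 0.12, Sema3e 0.58, Sema3f -0.35, Sema4c -0.11, Sema5a 0.23, Plxnb1 0.11, Ntn4 -0.28, Unc5b 0.12, Unc5c 0.40, Slit2 0.79 and Robo1 0.49. With the podocyte covariate they were Sema3e 0.18, Sema5a 0.079 and Plxnc1 0.11, and with thinned counts Plxnc1 0.049. Without 1 library, Efnb1 ran from -0.038 to 0.19, Sema3g from -0.089 to 0.149, Sema4c from -0.004 to 0.128, Sema5a from -0.16 to 0.037 and Plxnc1 from -0.183 to 0.04. The cause was not tested. Low levels limit Slit2, Efna5, Ephb2 and Plxnc1.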

Other observations

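Of the 34 listed members, 6 lie on chromosome 9, or 17.6% of them, against 5.58% of all listed genes. They are Ephb1, Plxnb1, Robo4, Sema3b, Sema3f and Sema7a, and they include the called member with the largest rise and a called member that fell.

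Robo2, a Robo receptor of podocytes that is no member, had 43.7, 28.3 and 42.0 CPM in STZ pools and 62.0, 66.7 and 25.2 CPM in control pools. Sema3e had 36.5, 22.3 and 37.1 CPM in STZ pools and 52.8, 52.5 and 21.9 CPM in control pools. In both genes STZ pool 2 and control pool 3 were the lowest libraries of their groups, as they were for the summed podocyte markers. This was also so for the members Ephb1, Ephb2, Sema3b, Sema3g, Sema5a, Plxnb1, Plxnb2, Unc5b and Unc5c. The pattern is therefore not particular to Robo2 and Sema3e, and its source was not tested.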
